A study of Mus musculus with 10 samples.

Results

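The comparison described here sets mouse embryonic fibroblasts carrying one altered form of the enzyme G9a against fibroblasts carrying another. It rests on 4 of the 10 Affymetrix 3' expression arrays of the series, chosen by their titles: 2 arrays of cells with FLAG-G9a K165A and 2 of cells with FLAG-G9a H1093K. In K165A a lysine of G9a is replaced by alanine, and in H1093K a histidine is replaced by lysine, which the labels call a catalytic mutant. All of these cells were embryonic fibroblasts in which G9a had been deleted, and the introduced form was the FLAG-tagged one. The other arrays used here are 2 of deleted cells that received wild type FLAG-G9a (WT) and 2 of deleted cells that received empty vector (delta); a further 2 are titled only as deleted, and their vector, if any, could not be learned from the labels. The labels also leave out the vector, its promoter, whether the cells were 1 line, and the strain or stage of the embryos. The design speaks of 2 independent analyses, but no label ties the arrays of a group to cultures of their own. The p-values therefore describe array-to-array spread, part of which may be technical.

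G9a, the product of Ehmt2, adds methyl groups to lysine 9 of histone H3 (H3K9), a mark of silenced genes outside constitutive heterochromatin, and works as a dimer with its relative GLP. It also methylates proteins other than histones, itself included: the lysine replaced in K165A lies in a stretch of G9a that resembles the tail of histone H3, and its methylated form is bound by the chromodomain of HP1 proteins. The series title concerns that site and the assembly of protein complexes on it. In fibroblasts, dimethyl H3K9 made by G9a is known to restrain interferon genes. The comparison therefore asks how messenger RNA levels differ between cells with a form of G9a lacking the histone-like lysine and cells with a form whose catalytic domain is altered. Neither the level of the introduced proteins nor methylation was measured on these arrays.

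Values are deposited signal intensities in arbitrary units, and log2 differences are K165A minus H1093K of log2(signal + 16), so folds of dim genes are understated. A gene or probe set is called higher or lower where its adjusted p from limma was under 0.05 over the 13576 probe sets tested, those in the brighter part of the array. All 10 arrays had a trimmed mean of 500.1 to 500.2 and a median signal of 181.1 to 199.6. The ratio of 3' to 5' actin probe sets, a sign of RNA integrity, was 1.22 and 1.24 in K165A and 1.22 and 1.22 in H1093K. The 99th percentile of signal was 7315 on K165A replicate 1 and 7644 on WT replicate 1, against 5959 to 6707 on the other 8 arrays. Counts are therefore also given without those 2 arrays. The number of arrays limits the precision.

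By the brightest of the fibroblast markers listed, the cells read as fibroblasts in both groups. Signals were 9945 to 13531 for vimentin (Vim), 9659 to 12637 for collagen Col1a2 and 9161 to 12022 for fibronectin (Fn1). Decorin (Dcn) and lumican (Lum), matrix proteoglycans often used as fibroblast markers, were low, at 5.6 to 54 and 12.3 to 28.3. The markers Pdgfra (41.2 to 81.8), Fap (31.8 to 64.2) and Postn (80 to 105.5) were dim as well. Among epithelial markers, the summed signal of 11 genes was 1344 and 1141 in K165A and 3092 and 2787 in H1093K. Keratin 7 (Krt7) accounted for most of that gap, while the defining marker Epcam was at 4 to 10.2 with overlapping groups. E-cadherin (Cdh1) lay the other way, at 130 and 126 in K165A and 122 and 77.4 in H1093K, with both K165A arrays above both H1093K arrays. The summed signal of 10 macrophage and leukocyte markers was 838 and 697 in K165A and 889 and 803 in H1093K, and that of 9 endothelial markers was 327 and 295 against 291 and 325. In such bulk samples, fewer cells of a type and less RNA per cell cannot be told apart.

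Ehmt2 itself read higher with K165A than with H1093K. By the probe set tested its signal was 704 and 725 in K165A and 461 and 494 in H1093K, beside 676 and 620.4 in WT and 473 and 415 in delta. Both K165A arrays lay above both H1093K arrays, a 1.48-fold difference (log2 0.57, 95% interval 0.36 to 0.77, adjusted p = 0.00406). The other Ehmt2 probe set was dimmer than the filter, at 90.4 and 178 in K165A and 116 and 55.6 in H1093K, and there the groups overlapped. No source used here places these probes against the deletion or against the introduced sequence, so the values check neither label. Unequal amounts of the introduced forms cannot be told apart here from the effect of the substitutions.

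Between K165A and H1093K, 1007 of 13576 probe sets were called (7.42%), 479 higher in K165A (3.53%) and 528 lower (3.89%). By genes, each read by its brightest probe set, 282 of 7742 were higher (3.64%) and 341 lower (4.40%). Of the probe sets called, 226 differed more than 2-fold (1.66% of those tested), 114 upwards and 112 downwards. In every called probe set the 2 arrays of one group lay beyond the 2 of the other; over all probe sets tested, K165A lay wholly above H1093K in 23.8% and wholly below in 23.8%. The count was 1854 with the replicate number as a block, which kept all 1007. It was 542 without H1093K replicate 1, 569 without H1093K replicate 2, 571 without K165A replicate 1, 663 when only these 4 arrays were fitted, and 472 without WT replicate 1 and K165A replicate 1 together, of which 454 were among the 1007. The plot of differences by level shows calls over most of the range of signal; the brightest probe sets, few of them called, lay slightly above 0.

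**Figure D1:**
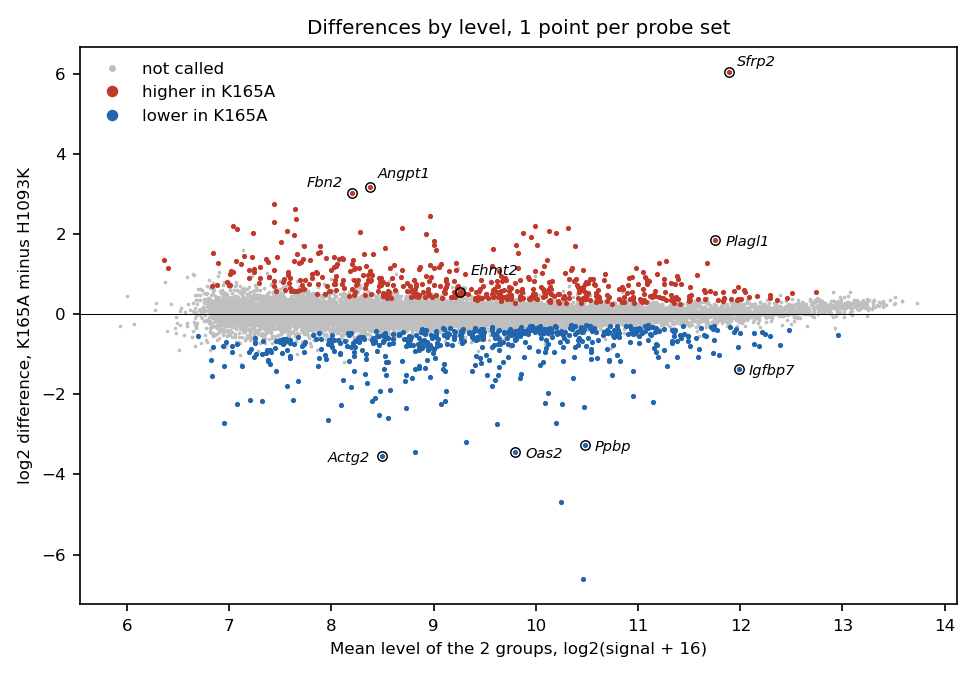
Each point is 1 of 13576 probe sets, with the mean level of K165A and H1093K (log2 of signal + 16) on the horizontal axis and the log2 difference, K165A minus H1093K, on the vertical axis. Red points are the 479 called higher, blue points the 528 called lower, and grey points were not called; ringed and named genes are given in the text, with Sfrp2 at 6.04 and Actg2 at -3.54. The 2 lowest points are probe sets that the annotation does not tie to 1 gene.

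The gene furthest above H1093K was Sfrp2, which encodes a secreted Wnt antagonist. Its signal was 7859 and 7053 in K165A and 104 and 91.8 in H1093K. The groups were 65.6-fold apart (log2 6.04 ± 0.46 SE, adjusted p = 3.77e-05), and the WT arrays, at 8822 and 7499, read close to the K165A arrays. The delta arrays, at 484 and 112, were both above both H1093K arrays. That difference was not called by limma (H1093K minus delta, log2 -1.15, adjusted p = 0.349).

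The next largest rises included 4 secreted or matrix proteins. Angpt1, the ligand of the endothelial receptor kinase Tie2, read 595 and 571 in K165A and 47.4 and 52.5 in H1093K, 9.09-fold apart (adjusted p = 4.95e-05). Fbn2, a fibrillin of elastic microfibrils, read 462 and 554 against 49.7 and 46.6 (8.14-fold, adjusted p = 5.44e-06). Mfap2, a glycoprotein of the same microfibrils, read 310.1 and 331 against 75.4 and 16.8, a 6.14-fold difference whose size depended on the H1093K arrays: its log2 difference was 3.36 without H1093K replicate 1 and 1.88 without replicate 2, and the call was lost without WT replicate 1 and K165A replicate 1 (adjusted p = 0.0638). Igfbp2, which binds insulin-like growth factors, read 296 and 248 against 51.7 and 34.0 (4.93-fold). The groups overlapped in none of these genes, which the choice of largest rises required and which is therefore no added result.

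The other 7 genes of largest rise were of other kinds. Ddit4l, an inhibitor of mTORC1 signalling, was 5.15-fold higher, Nrep 4.45-fold and the imprinted zinc finger gene Peg3 4.42-fold. The protocadherin Pcdhb17 and the neuronal membrane protein Plppr4 were 4.33-fold and 4.22-fold higher, the latter losing its call without WT replicate 1 and K165A replicate 1 (adjusted p = 0.0508). Shisa2, which holds back Wnt and FGF receptors in the endoplasmic reticulum, read 1395 and 1585 against 345 and 357 (4.10-fold). Eomes, a T-box transcription factor of early mesoderm and of lymphocytes, read 2029 and 1714 against 429.5 and 463 (4.07-fold, adjusted p = 4.27e-05). Its second probe set gave a log2 difference of 2.07, beside 2.02 by the first.

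Among genes lower in K165A, the 3 largest differences were those of a smooth muscle actin, an antiviral enzyme and a chemokine. Actg2, the gamma actin of smooth muscle, read 51.7 and 32.2 in K165A and 631 and 663 in H1093K, 11.6-fold lower (log2 -3.54 ± 0.18 SE, adjusted p = 5.44e-06). Oas2, a synthetase of the short oligoadenylates that switch on RNase L, read 152 and 118 against 1623 and 1592 (10.8-fold lower, adjusted p = 2.89e-06). Ppbp, a chemokine precursor known from platelets, read 252 and 257 against 2656 and 2473, 9.53-fold lower with the smallest adjusted p of the comparison (2.47e-07). In all 3 genes both K165A arrays lay below both H1093K arrays, which the choice of largest falls required. The WT arrays likewise lay below the delta arrays for Oas2, which read 180.8 and 133 in WT and 1350 and 1354 in delta.

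Several of the remaining falls concern enzymes of small molecules. Aldh1a1, which oxidises retinal to retinoic acid, read 433 and 190.5 against 2159 and 1836 (6.59-fold lower). Nnmt, which methylates nicotinamide, read 26.7 and 7.20 against 247 and 148, with K165A near the background of the array. The secreted glutathione peroxidase Gpx3 was 6.22-fold lower and Moxd1, a relative of dopamine beta-hydroxylase, 6.68-fold lower. Asb5, a muscle protein with ankyrin repeats, was 9.20-fold lower, and Tll1, a protease that cuts procollagens and BMP antagonists, 5.08-fold lower at 124 and 122 against 722 and 661. Oas3 read 47.6 and 147 against 497 and 657; its log2 difference of -2.53 became -1.85 without K165A replicate 1 and -3.21 without replicate 2. The desmosomal cadherin Dsg2 and Krt7 were 4.75-fold and 4.61-fold lower.

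**Figure D2:**
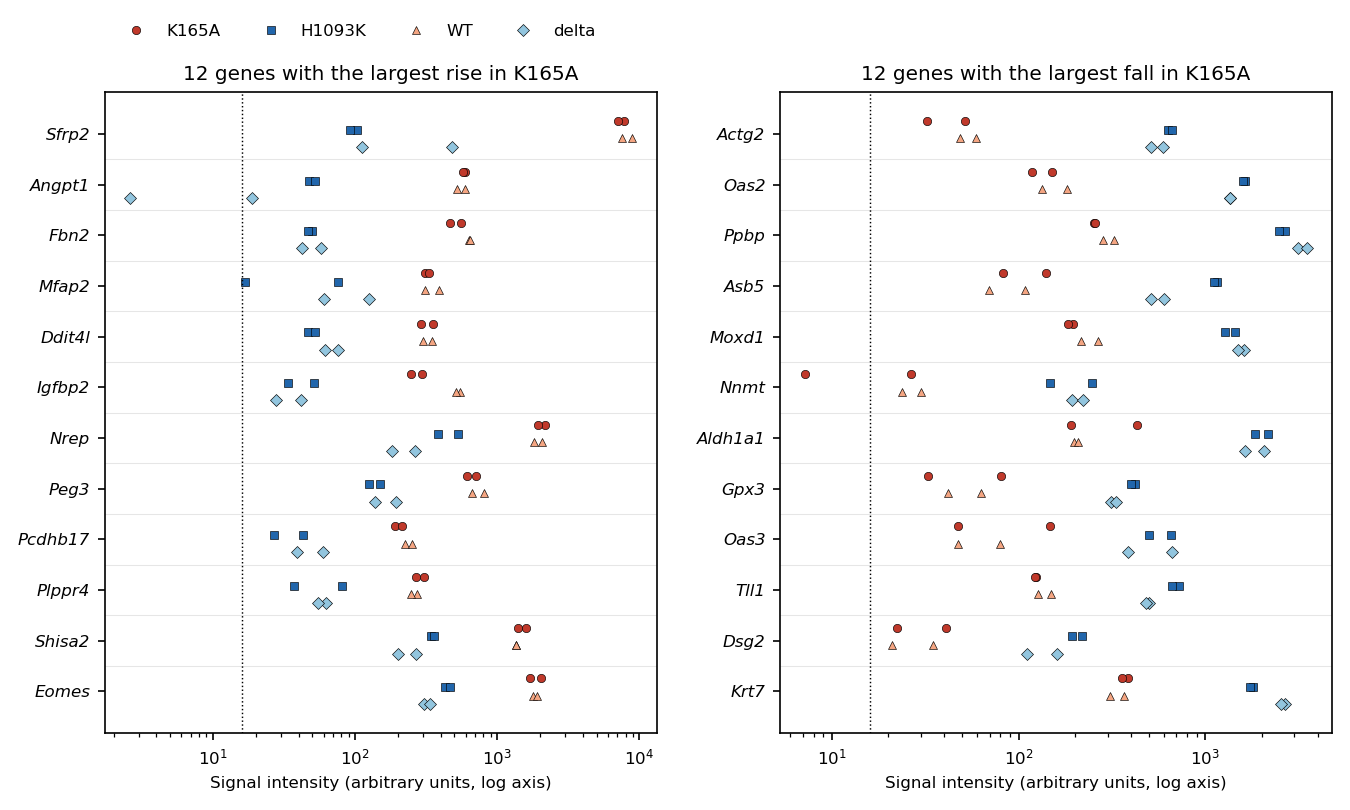
Signal on each array, on a log axis, for the 12 genes with the largest rise (left) and the 12 with the largest fall (right) in K165A against H1093K; red circles are K165A, dark blue squares H1093K, light triangles WT and light blue diamonds delta, with 2 arrays each. The dotted line marks the pseudocount of 16. In all 24 genes the circles lie wholly to one side of the squares, which the choice of these genes required.

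Described by lists of genes with a shared role, the differences were uneven. Over all genes tested the median log2 difference was -0.01, with the shares called of 3.64% higher and 4.40% lower. Of the 694 distinct list members tested, 174 were called. That number was 112 without WT replicate 1 and K165A replicate 1, and 121 to 135 when 1 of the 4 arrays compared was left out. The members were chosen with earlier results of these arrays in view, so these shares describe the lists and are no test of them.

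**Figure D3:**
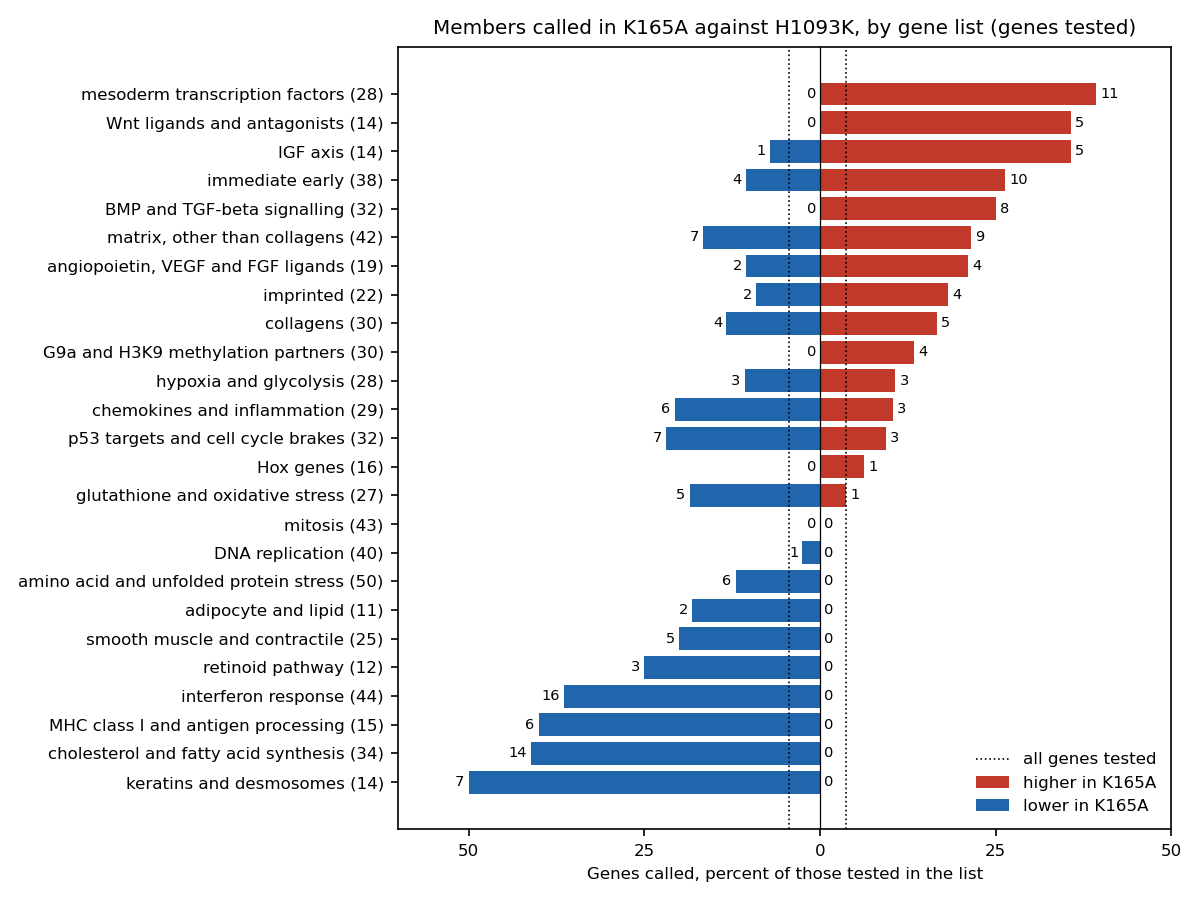
Bars give the percent of tested genes in each list that were called higher (red, to the right) or lower (blue, to the left) in K165A against H1093K, with the number called beside each bar and the number tested in brackets. Dotted lines mark the shares over all genes tested, 3.64% higher and 4.40% lower; mesoderm transcription factors reach 11 higher of 28 and keratins and desmosomes 7 lower of 14.

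Interferon response genes were lower in K165A where they were called. Of 44 tested, limma called 16 lower and 0 higher, the list median was -0.24, and 5 were higher at an unadjusted p under 0.05. Besides Oas2 and Oas3, Ifi47, an interferon-inducible GTPase, read 253 and 328 in K165A and 789.5 and 747 in H1093K (2.58-fold lower, adjusted p = 0.000255). Rsad2, which encodes the antiviral enzyme viperin, read 726 and 667 against 1425 and 1263 (1.91-fold lower, adjusted p = 0.000387). Oasl2, an oligoadenylate synthetase-like protein, was 1.42-fold lower but lost its call without WT replicate 1 and K165A replicate 1 (adjusted p = 0.0561). The other called members were Zbp1, Trim30a, Parp14, Gbp7, Gbp3, Isg20, Ifih1, Oas1a, Gbp2, Igtp and Usp18. Members that relay the interferon signal did not pass: the log2 difference was 0.03 for Irf9, 0.05 for Stat2 and -0.22 for Irf7. The number called was 5 without H1093K replicate 1, 7 without K165A replicate 2, 10 without H1093K replicate 2 or K165A replicate 1, and 8 without WT replicate 1 and K165A replicate 1. With the replicate block 20 were called lower and 4 higher. The Oas and Gbp genes have close relatives whose transcripts their probes can also read.

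Genes of antigen presentation by MHC class I, which interferon also induces, lay the same way. Of 15 tested, limma called 6 lower and 0 higher, also at an unadjusted p under 0.05 (8 lower, 0 higher), and the median was -0.48. The immunoproteasome subunit Psmb8 read 196 and 257 in K165A against 424 and 534 in H1093K (2.05-fold lower), and its partner Psmb9 read 136 and 132 against 303 and 306 (2.14-fold lower). The peptide transporter Tap1 read 310.4 and 326 against 566 and 589 (1.78-fold lower), and the class I heavy chain H2-K1 3455 and 3256 against 5553 and 6218 (1.75-fold lower). The log2 difference of the 4 H2-K1 probe sets ran from -0.77 to -2.31, and class I genes are near copies of one another. H2-D1 and H2-M3 were also called, while B2m, the light chain, had a log2 difference of 0.15 and was not. The count was 4 without K165A replicate 2.

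Because 16 interferon genes were called in 1 direction, their promoters were read for the interferon-stimulated response element, written as GAAA, any 2 bases and GAAA on either strand, in windows from 250 bases before to 50 after the RefSeq start site on GRCm38.p6. Windows were found for 12 of the 16 called genes, and 9 of these held the letters (75.0%), beside 9 of 20 interferon genes tested and not called (45.0%). Over all 32851 windows the share was 3.44%, and over the 6333 matched genes tested it was 3.88%. Among matched called genes it was 8.63% of the 255 lower in K165A and 4.76% of the 210 higher. A match says only that the letters are present. The windows below are of Oas3 and Rsad2, called lower, and of Eomes, one of the largest rises, whose window holds the same letters; capitals mark the match, which begins 75, 120 and 154 bases upstream of the start site. The Rsad2 match lies on the opposite strand, and each line runs in the direction of the gene.
Oas3, chr5:120777610-120777909, minus strand: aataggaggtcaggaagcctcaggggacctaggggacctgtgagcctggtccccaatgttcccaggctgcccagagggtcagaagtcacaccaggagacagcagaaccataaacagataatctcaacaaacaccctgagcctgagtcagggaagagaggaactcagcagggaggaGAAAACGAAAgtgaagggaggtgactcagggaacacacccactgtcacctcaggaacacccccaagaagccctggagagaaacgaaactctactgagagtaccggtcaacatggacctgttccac
Rsad2, chr12:26456403-26456702, minus strand: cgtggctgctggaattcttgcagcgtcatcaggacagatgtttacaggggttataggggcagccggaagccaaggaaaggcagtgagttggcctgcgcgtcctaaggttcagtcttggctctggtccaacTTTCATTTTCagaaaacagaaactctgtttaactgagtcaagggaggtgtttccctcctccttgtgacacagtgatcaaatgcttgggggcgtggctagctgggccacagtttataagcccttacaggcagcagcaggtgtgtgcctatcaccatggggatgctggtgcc
Eomes, chr9:118477939-118478238, plus strand: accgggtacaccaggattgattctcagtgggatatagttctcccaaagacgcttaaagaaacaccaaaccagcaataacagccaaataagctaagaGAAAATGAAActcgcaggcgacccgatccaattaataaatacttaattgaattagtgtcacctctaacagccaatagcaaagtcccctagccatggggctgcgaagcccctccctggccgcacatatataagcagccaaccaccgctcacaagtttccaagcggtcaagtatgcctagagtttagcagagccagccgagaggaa
Eomes rose 4.07-fold with this element in its window, and Oas3 and Rsad2 fell 5.76-fold and 1.91-fold. The windows shown were chosen for holding the letters, so they do not show how common these were on either side. The shares above give that.

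Many of the enzymes that make cholesterol were lower in K165A. Of 34 genes of cholesterol and fatty acid synthesis tested, limma called 14 lower and 0 higher, with a median of -0.28 and 1 higher at an unadjusted p under 0.05. Msmo1, which removes methyl groups from the sterol ring, read 1183 and 1124 in K165A and 2460 and 2248 in H1093K (2.02-fold lower, adjusted p = 2.45e-05). Fdps, which makes farnesyl diphosphate, read 2154 and 2092 against 3696 and 3651 (1.72-fold lower), Cyp51, the lanosterol demethylase, 832 and 805 against 1415 and 1344 (1.67-fold lower), and Idi1, an isomerase of isoprenoid units, 1042 and 1040 against 1601 and 1693 (1.57-fold lower). In each the 2 groups were apart by the probe set read. Another tested probe set of Idi1 (log2 -0.62, adjusted p = 0.0949) and of Cyp51 (-0.59, 0.129) also read lower but was not called by limma. Lss, Sqle, Sc5d, Nsdhl, Hmgcs1, Fdft1, Stard4, Insig2, Scd1 and Me1 were called as well, while Srebf2, the transcription factor of the pathway, had a log2 difference of -0.20 and Fasn, which makes palmitate, one of -0.26; neither passed. The count was 10 to 14 when any 1 array was left out and 11 without WT replicate 1 and K165A replicate 1.

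Keratins and desmosome genes, proteins of epithelial cell junctions and filaments, were lower where called: of 14 tested, limma called 7 lower and 0 higher (0 also at an unadjusted p under 0.05), with a median of -0.42. Krt7 read 386 and 358 in K165A and 1804 and 1742 in H1093K. The plakophilin Pkp2 read 112 and 119 against 575 and 508 (4.23-fold lower), Krt80 349 and 338 against 919 and 986 (2.69-fold lower) and Krt18 182 and 141 against 384 and 383 (2.26-fold lower). Perp and Krt19 were called too, Krt19 losing its call without K165A replicate 2 (adjusted p = 0.0884) or either H1093K array (0.104 and 0.076). Krt8, the usual partner of Krt18, overlapped between the groups, at 88.0 and 95.7 in K165A and 116 and 57.2 in H1093K. The part of the epithelial marker signal given above in these differences was not tested.

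Among transcription factors of mesoderm and connective tissue, limma called 11 of 28 higher in K165A and 0 lower (0 also at an unadjusted p under 0.05), with a median of 0.45, and 27 of the 28 differences were positive. Osr2, a zinc finger factor of limb and palate, read 1488 and 1606 in K165A and 368 and 428 in H1093K (3.78-fold, adjusted p = 1.8e-05). Mef2c, a factor of muscle and vessel development, read 291 and 371 against 102 and 107 (2.86-fold), and the T-box factor Tbx18 read 327 and 387 against 154 and 128 (2.38-fold). Ebf1, Six4, Tbx5, Tbx15, Prrx2, Osr1 and Mef2a were the other called members beside Eomes. Snai2 and Twist1, regulators of the mesenchymal state, had differences of 0.53 and 0.09 that did not pass. The count was 6 without K165A replicate 2, 7 without H1093K replicate 1 and 6 without WT replicate 1 and K165A replicate 1.

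Of 14 genes of Wnt ligands, receptors and antagonists, limma called 5 higher and 0 lower (0 also at an unadjusted p under 0.05), with a median of 0.29. Besides Sfrp2, the Wnt receptor Fzd8 read 729.5 and 847 in K165A and 224 and 194 in H1093K (3.57-fold), Rspo2, a secreted amplifier of Wnt signals, 2757 and 2769 against 1305 and 1163 (2.23-fold), and Fzd1 458 and 558 against 219 and 220.3 (2.22-fold). The receptor Fzd2 was the fifth called, and the ligand Wnt5a, at -0.41, did not pass. The called genes, an amplifier, receptors and an antagonist, thus lay on one side of the comparison.

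In BMP and TGF-beta signalling limma called 8 of 32 higher and 0 lower (1 at an unadjusted p under 0.05), with a median of 0.22. The ligand Bmp4 read 577 and 507 against 154 and 172 (3.12-fold, adjusted p = 6.92e-05). Id2, a BMP target that blocks helix-loop-helix factors, read 977 and 970 against 662 and 619.9 (1.51-fold); Id1, Id3 and Id4 were called higher as well. The inhibitory Smad6, itself a BMP target, read 964 and 1007 against 540.1 and 562 (1.76-fold), and Tgfbi, a matrix protein induced by TGF-beta, 3564 and 3275 against 2016 and 2040 (1.68-fold). The receptor Tgfbr2 was the last of the called members, so ligand, targets and inhibitor were all represented. The count was 5 without WT replicate 1 and K165A replicate 1, and with the replicate block it was 12 higher and 1 lower.

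In the insulin-like growth factor axis 5 of 14 were called higher and 1 lower, with a median of 0.29. The adaptor Irs1 read 1643 and 1637 in K165A and 914 and 869 in H1093K (1.82-fold) and the binding protein Igfbp4 612 and 632 against 296 and 257 (2.18-fold), while Igf1 and Grb10 were called higher too. Igfbp7, a binding protein of a different affinity class, lay the other way at 2142 and 2365 against 5524 and 6096 (2.57-fold lower, adjusted p = 7.43e-05). Of the angiopoietin, VEGF, PDGF and FGF genes 4 of 19 were higher and 2 lower. Nrp2, a co-receptor of VEGF and semaphorins, read 560 and 535 against 261 and 237 (2.13-fold), and Pdgfc, a ligand of the PDGF receptors, 370 and 358 against 1112 and 1035 (2.87-fold lower). Vegfa was 1.94-fold lower, a call lost without H1093K replicate 1 or K165A replicate 1 (adjusted p = 0.0732 and 0.0588), and Fgf18 was 2.43-fold higher, a call lost without H1093K replicate 2 (0.0527). Another tested probe set of Vegfa was not called by limma (log2 -0.89, adjusted p = 0.355). With the replicate block 10 of the 19 were called. Ligands of growth factor receptors therefore stood on both sides.

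Matrix genes were called both ways. Of 30 collagens and their modifying enzymes, 5 were called higher and 4 lower, with a median of -0.04. The 3 chains of collagen VI tested were all higher: Col6a3 read 735 and 793 against 172 and 183 (4.03-fold, adjusted p = 4.01e-06), Col6a2 3145 and 2476 against 1488 and 1406 (1.92-fold) and Col6a1 5148 and 4939 against 3193 and 3449 (1.52-fold). The cartilage collagen Col11a1 read 278 and 288 against 133 and 133, while the chains of collagen I, the main fibre of fibroblasts, did not pass (Col1a1 0.13, Col1a2 0.23). Col12a1, Plod2, Loxl1 and Col4a6 were the 4 called lower. The collagen count was 5 without either H1093K array or without K165A replicate 1.

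Of 42 matrix genes other than collagens, 9 were called higher and 7 lower, with a median of 0.15. The protease Adamts1, which cuts the proteoglycan versican, read 3470 and 3593 against 1387 and 1415 (2.50-fold), Timp3, a metalloprotease inhibitor, 1033 and 1101 against 473 and 525 (2.10-fold), and Omd, a proteoglycan of bone, 1612 and 1368 against 659 and 616 (2.30-fold). Thbs2, an anti-angiogenic thrombospondin, read 2972 and 2846 against 5070 and 5213 (1.76-fold lower); Ltbp2, Ccn5, Fbln2, Timp1, Tnc and Lamb1 were the others called lower. The inhibitors Timp1 and Timp3 thus differed in direction.

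Immediate early genes, which cells switch on within minutes of a stimulus, were called higher more often than lower: 10 of 38 against 4, with a median of 0.25. Fosb, a subunit of the AP-1 transcription factor, read 3065 and 3589 in K165A and 1289 and 1432 in H1093K (2.42-fold, adjusted p = 0.000116), and its partner Jun 3943 and 4052 against 2672 and 2647 (1.5-fold). Zfp36, which destabilises messenger RNAs, read 4119 and 3977 against 1990 and 2072 (1.98-fold), and its relative Zfp36l1 read 3446 and 3560 against 1736 and 1880 (1.93-fold). The kinase Plk2 lay the other way, at 2205 and 2137 against 3831 and 4180 (1.84-fold lower). Fos, at 0.55, and Egr1, at 0.44, did not pass. The count was 9 without K165A replicate 1 and 8 without WT replicate 1 and K165A replicate 1.

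The element that AP-1 binds, the letters TGANTCA on either strand, was held by 7.81% of all windows and by 6.03% of those of matched genes tested. It was in 7.62% of the windows of genes called higher and in 12.9% of those of genes called lower. Ppbp and Igfbp2 are shown, the match in capitals, because they lie far apart in the comparison and both hold it, 204 and 39 bases upstream of the start site.
Ppbp, chr5:90768268-90768567, plus strand: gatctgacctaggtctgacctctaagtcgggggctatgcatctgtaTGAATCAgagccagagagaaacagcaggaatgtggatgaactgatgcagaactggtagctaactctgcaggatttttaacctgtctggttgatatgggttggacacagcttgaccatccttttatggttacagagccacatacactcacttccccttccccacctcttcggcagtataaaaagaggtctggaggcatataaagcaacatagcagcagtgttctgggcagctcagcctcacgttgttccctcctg
Igfbp2, chr1:72825137-72825436, plus strand: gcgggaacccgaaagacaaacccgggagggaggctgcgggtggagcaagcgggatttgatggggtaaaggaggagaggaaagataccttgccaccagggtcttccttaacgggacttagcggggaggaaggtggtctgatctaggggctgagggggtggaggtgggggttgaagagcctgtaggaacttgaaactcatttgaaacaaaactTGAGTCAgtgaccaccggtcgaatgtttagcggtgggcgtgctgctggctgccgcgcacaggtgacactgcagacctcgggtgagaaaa
Ppbp was 9.53-fold lower and Igfbp2 4.93-fold higher in K165A. Both windows were chosen for holding the match, so they do not show how common it was on either side. The shares above, 12.9% of genes called lower and 7.62% of those called higher, give that. Of the other letters searched, the E-box CACGTG was in 21 of the 210 windows of genes called higher and 21 of the 255 of genes called lower, the CCAAT box in 46.2% and 43.9%, the cyclic AMP element TGACGTCA in 2.38% and 1.57%, and the core of the sterol element, TCACNCCAC, in 2.86% and 1.18%. Over all windows the shares of these 4 were 7.15%, 37.4%, 1.79% and 1.24%, and over the matched genes tested they were 12.5%, 43.5%, 3.69% and 1.37%. The serum response element and the NF-kB site were each searched as 1 fixed sequence with no variable base, and each was held by at most 1 called window. Over the 6333 matched genes tested, 1 window held the former (0.0158%) and 15 the latter (0.237%). With matches this rare, the counts cannot show whether called genes hold other forms of these sites.

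Few cell cycle genes were called. Of 43 mitosis genes limma called 0, with a median of -0.06, beside 2 higher and 6 lower at an unadjusted p under 0.05. Of 40 DNA replication genes only Dut, which keeps uracil out of DNA, was called (1373 and 1713 against 2394 and 2673, 1.64-fold lower). Its other probe set tested was not called by limma (log2 -0.52, adjusted p = 0.06045). The limma fit with the replicate block called 2 mitosis genes higher and 3 lower. Of 32 p53 targets and cell cycle brakes 3 were higher and 7 lower. Pmaip1, which encodes the death-promoting protein Noxa, read 438 and 439 against 1431 and 1303 (3.04-fold lower), and Cdkn1c, an imprinted inhibitor of cyclin-dependent kinases, 759 and 828 against 319 and 411 (2.14-fold higher). Cdkn1a, which encodes the p53-induced inhibitor p21, was called lower at -0.76 on the log2 scale, and Mdm2, another p53 target, had a difference of 0.01 that did not pass. Without K165A replicate 2 the number of these genes called was 6.

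Imprinted genes were called both ways. Of 22 tested, 4 were higher and 2 lower. Plagl1, a zinc finger factor that coordinates other imprinted genes, read 5390 and 5394 in K165A and 1396 and 1585 in H1093K (3.60-fold, adjusted p = 1.76e-05), and Peg3 read 612 and 704 against 149 and 124. Ndn, a growth-restraining protein of neurons, read 204 and 213 against 545 and 460.2 (2.30-fold lower). The alleles were not measured.

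Called members of the stress lists were mostly lower in K165A. Of 50 genes of amino acid and unfolded protein stress limma called 6 lower and 0 higher (2 at an unadjusted p under 0.05), with a median of -0.16. Asparagine synthetase (Asns) read 429 and 465 against 997 and 1033 (2.23-fold lower, adjusted p = 2.43e-05). The tRNA synthetase Gars and the chaperone partner Dnajb11 were 1.38-fold and 1.36-fold lower, and both calls were lost under some left-out arrays (adjusted p of 0.0542 for Gars without H1093K replicate 2, and 0.0777 for Dnajb11 without H1093K replicate 1). That list's count was 2 without H1093K replicate 2 or K165A replicate 1, 3 without H1093K replicate 1, 1 without WT replicate 1 and K165A replicate 1, and 15 with the replicate block. Of 27 glutathione and oxidative stress genes 5 were lower and 1 higher: Gstm2, a glutathione transferase, read 759 and 722 against 1656 and 1729 (2.26-fold lower) and the metallothionein Mt2 1660 and 1725 against 2642 and 2651 (1.56-fold lower). The count was 3 without K165A replicate 1, alone or with WT replicate 1.

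Of 29 chemokine and inflammation genes 3 were higher and 6 lower: the neutrophil chemokine Cxcl5 read 239 and 193 against 982 and 755 (3.80-fold lower), its relative Cxcl15 1019 and 1041 against 2295 and 2317 (2.22-fold lower), and the homing chemokine Cxcl12 2650 and 2476 against 1518 and 1504 (1.69-fold higher). Of 12 retinoid genes 3 were lower; beside Aldh1a1, the retinol dehydrogenase Rdh10, which makes its substrate, read 2325 and 2466 against 3510 and 3740 (1.51-fold lower). Of 25 smooth muscle and contractile genes 5 were lower, among them calponin Cnn1 at 572 and 526 against 893 and 815 (1.54-fold lower), while Acta2, the usual smooth muscle actin of fibroblasts, had a difference of -0.04 and did not pass. That count was 2 without K165A replicate 1, 3 without K165A replicate 2 or H1093K replicate 2, and 8 with the replicate block. Of 28 hypoxia and glycolysis genes 3 were higher and 3 lower, and 2 or 3 were called in all when any of the 4 arrays compared was left out. Of 11 adipocyte genes 2 were lower, among them the fatty acid carrier Fabp4 at 139.9 and 126 against 587 and 508; without H1093K replicate 2 or K165A replicate 1 the count was 1. Of 16 Hox genes and cofactors only Hoxd13, a factor of the distal limb, was higher, a call lost without H1093K replicate 1 (adjusted p = 0.151), H1093K replicate 2 (0.0868) or K165A replicate 2 (0.149).

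Among G9a partners and other genes of H3K9 methylation, limma called 4 of 30 higher and 0 lower (0 also at an unadjusted p under 0.05), with a median of 0.09. Besides Ehmt2 these were the H3K9 demethylases Kdm3a, at 593 and 518 against 363 and 426 (1.39-fold), and Kdm3b, at 722 and 669.7 against 506 and 486 (1.39-fold), and the repressor Zeb1, at 2644 and 2620 against 1921 and 1835 (1.398-fold). In all 3 the groups were apart, but without H1093K replicate 1 the adjusted p was 0.236 for Kdm3a, 0.0654 for Kdm3b and 0.0608 for Zeb1, and Ehmt2 was then the only member called. The count was also 1 without H1093K replicate 2 or K165A replicate 1, and 2 without K165A replicate 2. For Kdm3a the limma call was also lost with no filter (adjusted p = 0.0541), with median centring (0.0563) and with only the arrays compared fitted (0.106). The HP1 gene Cbx5 (0.16), the G9a partner Wiz (0.01) and the DNA methyltransferase Dnmt3a (0.07) did not pass. Ehmt1, which encodes GLP, is not analysed here.

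The K165A and H1093K arrays share no array with those of WT and delta, so the genes that changed when wild type G9a was restored could be read on other arrays, which entered the choice only through the shared filter and the estimate of spread. In WT against delta 1616 probe sets were called (11.9%), 736 higher in WT (5.42%) and 880 lower (6.48%). Of these 1616, 1514 (93.69%) differed in the same direction between K165A and H1093K, beside 69.46% of all probe sets tested and 66.19% of the 11960 not called. The slope of the K165A minus H1093K difference on the WT minus delta difference, through the origin, was 0.79 over the 1616 and 0.86 over the 286 that also differed more than 2-fold, of which 283 shared direction. With the replicate block the share was 89.83% and the slope 0.76 over the probe sets then called. Probe sets are not independent replicates, and no test is attached to these shares.

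Both directions were carried over. Of the 736 probe sets higher in WT, 685 (93.07%) were also higher in K165A than in H1093K, with a median difference of 0.42 beside 0.59 in WT minus delta. Of the 880 lower in WT, 829 (94.20%) were lower in K165A, with a median of -0.36 beside -0.54. These probe sets were chosen by their calls in WT against delta, which can enlarge that difference and not the other. The medians, and the slope above, therefore cannot show whether the mutant difference was smaller. On the replicate 1 arrays alone 91.52% of the 1616 shared direction, and on the replicate 2 arrays alone 92.88%. Without WT replicate 1 and K165A replicate 1, the pair with the high top signals, the share over the probe sets then called was 98.62%. With each comparison fitted on its own 4 arrays it was 1047 of 1092, or 95.88%. Deviations of same-numbered arrays from their group means correlated between the groups, at 0.39 for WT with K165A and 0.53 for delta with H1093K across probe sets, so the comparisons share no array but do not vary wholly apart.

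**Figure D4:**
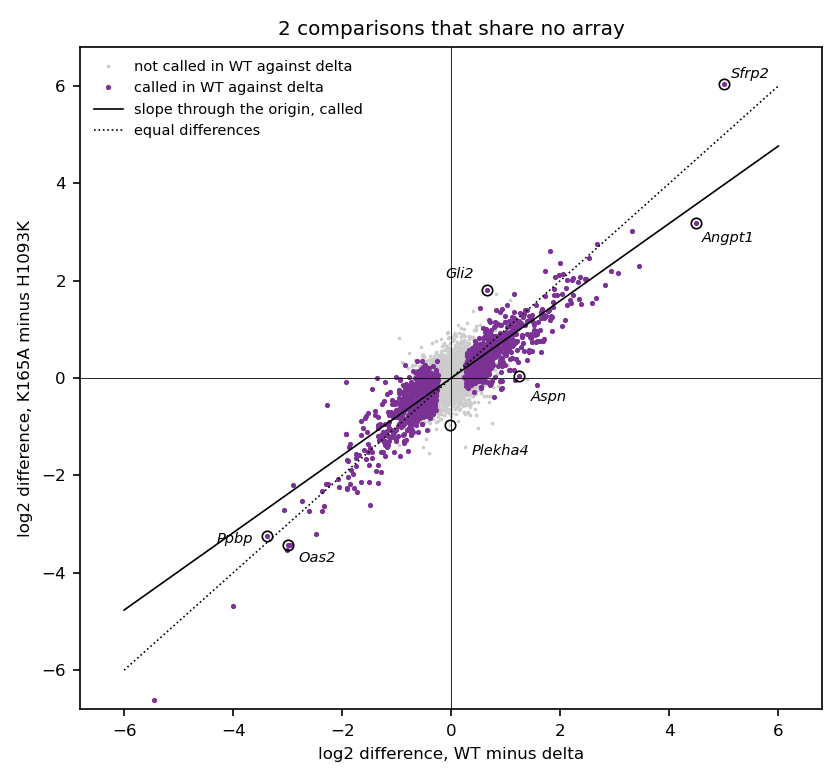
Each point is 1 of 13576 probe sets, with its log2 difference in WT minus delta on the horizontal axis and in K165A minus H1093K on the vertical axis; purple points are the 1616 called in WT against delta. The solid line is their slope through the origin, 0.79, the dotted line marks equal differences, and ringed genes are named in the text.

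By genes, the largest WT responses were also seen between K165A and H1093K. The 8 genes that rose most in WT against delta were each called higher in K165A than in H1093K; they were Sfrp2, Angpt1, Igfbp2, Fbn2, Nrep, Osr2, Bmp4 and Shisa2. Bmp4 read 622 and 739 in WT and 82.2 and 107 in delta, beside 577 and 507 in K165A and 154 and 172 in H1093K. The log2 difference was 2.66 in WT minus delta and 1.64 in K165A minus H1093K. Of the 8 that fell most, Ppbp, Aldh1a1, Actg2, Oas2, Krt7, Oas3, Moxd1 and Asb5, all were called lower in K165A. Ppbp read 326 and 282 in WT and 3120 and 3499 in delta, and its log2 differences were -3.38 and -3.25.

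The overlap of calls was smaller than the agreement of direction. Of the 1007 probe sets called between K165A and H1093K, 712 (70.71%) were also called with the same sign in WT against delta, 351 higher and 361 lower, and these were 44.06% of the 1616. With the replicate block the number was 1211, without H1093K replicate 1 it was 453, without H1093K replicate 2 it was 470, and without WT replicate 1 and K165A replicate 1 it was 359. Of the 286 WT calls over 2-fold, 246 (86.01%) were called in K165A against H1093K. Only 1 probe set, of the respiratory chain gene Cox7a2l, was called in both with opposite signs. Counting any size, 972 of the 1007 (96.52%) lay in the WT direction and 35 in the other.

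Whether the difference between the mutants departs from the difference between WT and delta was tested directly, as the difference of the 2 differences. By limma 3 of 13576 probe sets passed (0.0221%), and 1007 had an unadjusted p under 0.05. The clearest was Aspn, which encodes asporin, a small proteoglycan that binds collagen and TGF-beta. Aspn read 817 and 788 in K165A and 755 and 796 in H1093K, where the groups overlapped, while it read 865 and 842 in WT and 372 and 334 in delta. Its log2 difference was 0.05 between the mutants and 1.24 between WT and delta, -1.19 apart (95% interval -1.46 to -0.92, adjusted p = 0.0345). By this probe set H1093K thus stood with K165A and WT, and delta alone was low. The other Aspn probe set tested had a log2 difference of -0.15 between the mutants and was not among those that passed. The number of probe sets passing was 0 when any 1 array was left out, except delta replicate 2 (1), and 52 with the replicate block.

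Another to pass was 1 of the 4 probe sets of Tgfbi, at 2799 and 3046 in K165A, 1973 and 1984 in H1093K, 3025 and 3130 in WT and 1137 and 1040 in delta; its WT minus delta difference was 1.49 and its mutant difference 0.56, -0.93 apart (interval -1.18 to -0.68, adjusted p = 0.0495). By the brightest Tgfbi probe set the gap was -0.80 (adjusted p = 0.0573), which did not pass. The last was a probe set that the annotation ties to no gene. A further group of genes came near the threshold without passing. Timp3 had a mean of 1153 ± 84.7 (SD, n = 2) in WT and 268 ± 21.6 in delta, with a gap of -0.97 to the mutant difference (adjusted p = 0.0573). Smoc2, a matrix protein that binds calcium, had a gap of -0.79 (adjusted p = 0.0751), with H1093K at 2651 and 2541 and delta at 1378 and 1480. Jun had a gap of -0.62 (adjusted p = 0.11), with 2672 and 2647 in H1093K and 1623 and 1623 in delta. In Timp3, Smoc2 and Jun both H1093K arrays lay between the delta and the K165A arrays.

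For other genes the difference read larger in size between the mutants than between WT and delta, without passing that test. Gli2, a transcription factor of the Hedgehog pathway, read 278 and 253 in K165A, 68.3 and 61.1 in H1093K, 248 and 304 in WT and 184 and 154 in delta. Its mutant difference of 1.80 (adjusted p = 6.63e-05) stood 1.15 above the WT difference of 0.66, a gap that did not pass (adjusted p = 0.184). The other Gli2 probe set tested gave a mutant log2 difference of 1.01, which limma did not call (adjusted p = 0.1004). C1qtnf12, a secreted relative of adiponectin, read 689 and 705 in K165A and 395 and 370.4 in H1093K but 636 and 663 in WT and 638 and 641 in delta. Its gap was 0.82 (adjusted p = 0.0573), and only 1 of its 4 probe sets was called between the mutants. Foxd1, a forkhead factor of kidney stroma, read 356 and 347 in K165A and 577 and 591 in H1093K, with 400.2 and 449 in WT and 339.8 and 337 in delta (gap -1.02, adjusted p = 0.0681). The signs of its differences were opposite, -0.71 between the mutants and 0.31 between WT and delta, the latter not called. In these 3 genes both H1093K arrays lay beyond all of the other 6. For Gli2 the delta arrays also lay below the K165A and WT arrays, and limma called its WT minus delta difference (adjusted p = 0.0206).

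**Figure D5:**
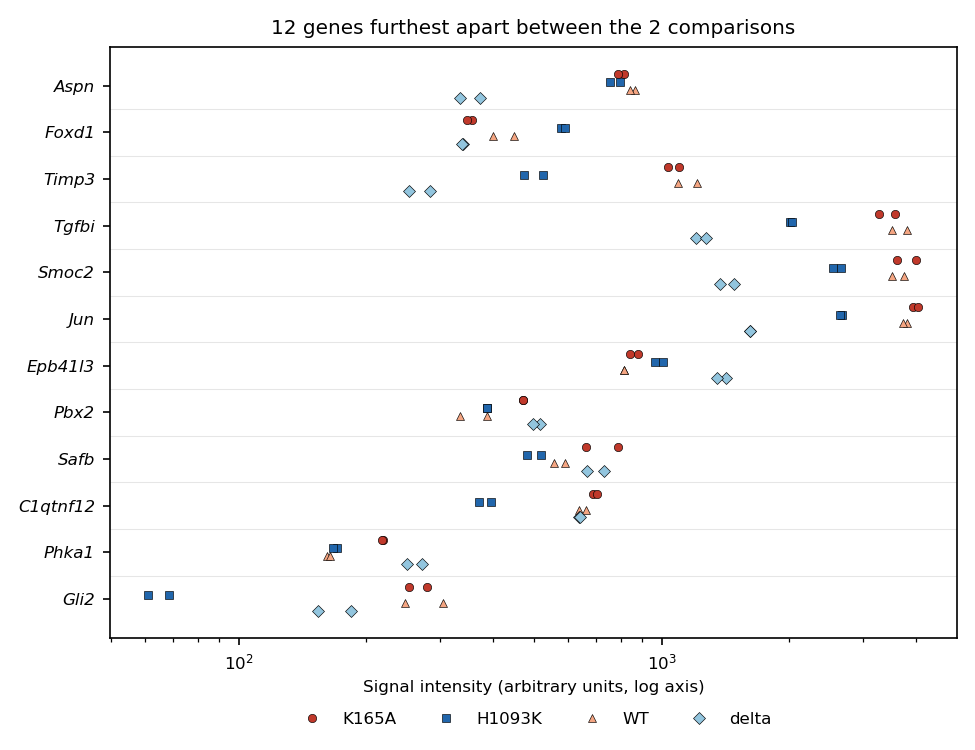
Signal on each array, on a log axis, for the 12 genes, 6 in each direction, of smallest p in the test of the difference between K165A minus H1093K and WT minus delta, ordered by that difference; red circles are K165A, dark blue squares H1093K, light triangles WT and light blue diamonds delta, 2 arrays each. For Aspn the squares lie with the circles and triangles and the diamonds lie apart, while for Gli2 the squares are lowest.

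Some genes called between the mutants had a WT minus delta difference under 0.25 in size. Among them were Pde4b, a phosphodiesterase of cyclic AMP, at 460.5 and 581.6 in K165A and 290.3 and 241 in H1093K (1.90-fold higher, WT minus delta 0.07), and Mrpl33, a mitochondrial ribosomal protein, at 353 and 338 against 608 and 689 (1.84-fold lower, WT minus delta -0.24). Ptprd and Dnajc12 were 1.82-fold and 1.80-fold higher, and Plekha4 1.96-fold lower. The calls of these 3 were lost without H1093K replicate 1 (adjusted p = 0.0622, 0.12 and 0.0533), those of Ptprd and Dnajc12 also without H1093K replicate 2 or K165A replicate 1, and the other Plekha4 probe set bright enough to be tested gave a log2 difference of 0.05. For none of these 5 genes did the test of the difference between the comparisons pass (adjusted p of 0.241 for Pde4b and 0.241 for Mrpl33).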

How the data were processed

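Messenger RNA was measured on Affymetrix 3' arrays, 2 for each of 5 groups. The deposited values are signal intensities per probe set on a linear scale, made with GCOS 1.4 per the submitters' processing notes; its background and scaling options are not given there, and dim signals depend on them. The trimmed mean was about the same on every array. Of 22690 probe sets, 64 controls were left out, and 20380 of the rest had 1 gene symbol, 691 several and 1555 none. Symbols came from the platform annotation, and 20364 gene IDs matched the reference. A gene was read by its probe set of highest mean.

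Signals were taken as log2(signal + 16). The 13576 probe sets with a mean at or above the 40th percentile, taken across the 10 arrays, were fitted with limma 3.58.1 in R 4.3.3, with 1 mean per group over all 10 arrays (lmFit, then eBayes with a trend; 5 residual and 4.73 prior degrees of freedom). P-values are two-sided and Benjamini-Hochberg adjusted over all probe sets tested, with calls at an adjusted p under 0.05. An exact permutation test of 2 arrays against 2 cannot go below 0.333. The fit was tested on simulated data. Same-numbered arrays deviated together in all 10 pairs of groups (correlations of 0.2337 to 0.5269). On this and on the design's mention of 2 independent analyses, the numbers were taken as a possible pairing. The main fit had no block, so its p-values, intervals and counts leave that pairing out. Values with the replicate number as a block stand beside the main counts, share and slope that the block moved.

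Named genes were first the 12 largest rises and the 12 largest falls among called genes whose groups did not overlap. Also named were H3K9 genes that passed, up to 4 members of smallest p per list, and the 8 largest rises and falls in WT against delta. Further ones were up to 6 each way by the difference of the comparisons, and up to 6 with a WT difference under 0.25 in size. List members given as not called, other called members given by name alone, Cdkn1a, Cox7a2l and the promoter windows shown were chosen after their values were seen. The members and lists were chosen with earlier results of these data known. Promoter windows came from RefSeq on GRCm38.p6. The alternatives covered the pseudocount, filter, scaling, arrays fitted, trend, block, left-out arrays and probe set choice. A further one, leaving out WT replicate 1 and K165A replicate 1 together, was chosen after seeing the data.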

Additional observations from a re-analysis of the deposited data

Results flagged for a closer look

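For 3 probe sets the difference between K165A and H1093K was not the difference between WT and delta by limma's test of the 2. An Aspn probe set had a difference of the log2 differences of -1.1895, with H1093K at 755 and 796 and delta at 372 and 334. A Tgfbi probe set had one of -0.9293. A probe set with no gene had one of 1.7287, with group means of 68.05 in K165A, 106.6 in H1093K, 70.68 in WT and 403.2 in delta. None of the 3 was called in the fit of the 8 arrays without the deleted pair.

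The arrays labelled deleted take no part in the comparison, and Ehmt2 read 1678 and 1750 there, with a mean of 1714 and an SD of 50.95. That was above every other array, whose Ehmt2 signals ran from 414.8 to 724.7.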

How the results depend on the processing

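Of 142 named genes 115 were called, of which 88 were called under every alternative that tested them (21 or 22 for each gene), and 0 changed direction. The 1007 probe sets called between K165A and H1093K became 663 when only the arrays compared were fitted, 1854 with the replicate block, 472 without WT replicate 1 and K165A replicate 1, and 542 to 948 when 1 array was left out. The slope on WT minus delta was 0.7585 with the block, 0.8571 for WT calls over 2-fold, and 0.7491 to 0.8192 when 1 array was left out. The share of WT calls with the same direction was 92.72% with the filter at the 60th percentile, 95.88% on the arrays of each comparison alone, 94.97% without both deleted arrays, 89.83% with the block, 98.95% over 2-fold, 98.62% without WT replicate 1 and K165A replicate 1, and 90.93% to 97.31% when 1 array was left out. Calls shared by the comparisons numbered 1211 with the block, 359 without WT replicate 1 and K165A replicate 1, and 453 to 633 when 1 array was left out. The 3 probe sets that differed between the comparisons became 1 with a pseudocount of 1, 0 with no filter and 7 with the filter at the 60th percentile. Their number was 0 without both deleted arrays, 1 without the trend and 52 with the block. List members called numbered 112 without WT replicate 1 and K165A replicate 1, and 121 to 170 when 1 array was left out. For these the cause was not tested, beyond the fewer arrays or probe sets that such settings use. Among named genes the block ended no call, and Pbx3, Ncapd2, Smc4, Cdc25b and Syn1 passed with it and not without it. Dim genes depended most on the pseudocount: the log2 difference of Sfrp2 was 6.24 with a pseudocount of 1 and 5.54 with 64, and that of Actg2 -3.95 and -2.75.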

Other observations

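Neuronal and fibroblast genes held a few further differences. Stmn2, a protein of growing axons that binds tubulin, read 223 and 252 in K165A and 753 and 713 in H1093K (2.96-fold lower, adjusted p = 3.93e-05 by limma), and with Ndn it was 1 of 2 called lower among 8 neuronal genes tested. Of 11 fibroblast markers tested 2 were higher and 2 lower. Thy1, a surface glycoprotein of many fibroblasts, read 977 and 1002 against 1676 and 1744 (1.72-fold lower, adjusted p = 0.0021). Pdgfrb, a receptor of platelet-derived growth factor, read 1416 and 1245 against 929 and 802 (1.53-fold higher). The fibroblast marker count was 1 without any 1 of the 4 arrays compared, and Pdgfrb was among the calls lost each time.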
